A study of Mus musculus with 12 samples.

Results

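The genes described here are 8 markers of the alveolar type I cell, the flat cell that lines the gas-exchange surface of the lung: Ager, Akap5, Hopx, Pdpn, Clic5, Rtkn2, Cav1 and Npnt. They were taken by name, with earlier results of these data known, and their probes were found through the accession that the array design gives each probe. In all, 7 of the 8 genes had a probe, with 12 probes between them, among 32678 features (genes or unnamed accessions) on the array. No probe was assigned to Rtkn2 by its accession, so Rtkn2 was not analysed here. All 7 remaining genes were among the 24504 features tested.

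Transcript levels came from 12 Agilent arrays of the mouse genome read in 1 colour, with 3 arrays for each of 4 groups, in a study of adult cells whose fate is redirected by stroma. The 4 groups are labelled as epithelial cells of adult mouse lung, of adult mouse mammary gland, of reprogrammed lung and of reprogrammed mammary. Adult donor cells came from the lungs and mammary glands of female mice aged 10 weeks, with no genotype or strain stated. The organs were digested with trypsin and collagenase, and epithelium was enriched by repeated washing and centrifugation, without mention of sorting. The protocol also describes embryonic lung epithelium of stage E13.5 and the suspension of cells in Matrigel for transplantation. It leaves unstated whether a reprogrammed sample is named for the donor organ or for the tissue formed, and the site and time of the transplant are not given in the sources used here. Whether replicates came from separate animals or pools is unstated too, so p-values measure the spread between these arrays, which may be technical.

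Alveolar type I cells are very thin and cover most of the alveolar surface, where oxygen crosses to the capillary beneath. They share the alveolus with cuboidal type II cells, which make surfactant and can give rise to type I cells after injury. The markers span several roles: Ager is a multiligand receptor of the cell membrane, Pdpn a mucin-like membrane protein, Cav1 the coat protein of caveolae, Npnt an extracellular matrix ligand for an integrin, Akap5 a scaffold that anchors protein kinase A, Clic5 a chloride intracellular channel family protein linked to the cortical actin skeleton, and Hopx a small homeodomain protein that does not bind DNA itself.

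The labels' "epithelial cells" were set against marker lists before the results. Adult lung arrays had summed signals of 21.1 to 28.0 over 8 general epithelial genes, against 208 to 270.0 on the adult mammary arrays, where 1 is the 75th percentile of an array. The same adult lung arrays had summed signals of 196 to 228 over 12 genes of blood endothelium, against 32.9 to 75.1 on adult mammary. A pair of arrays also stood apart technically. The share of probes well above background was 89.0% on adult mammary replicate 4 and 91.1% on replicate 1 of reprogrammed lung, against 71.7% to 77.4% on the other 10 arrays. Both arrays also had a narrower spread of signal. Reprogrammed lung replicate 1 was low for general epithelium too, at 32.3, where replicates 3 and 4 of its group had 161 and 193.

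The RefSeq promoter table (build GRCm38.p6) held windows for the 7 genes with a probe. For 4 of them a window of 250 bases just before a transcription start lay outside every gene model. These 4 are shown because they lay outside gene models, and so that their composition can be compared. Capitals mark matches, on either strand, to TATAAA (the TATA box), CTTGAG (the core of NKX2-1 sites), GGAATG (the core of TEAD sites) or GGGCGG (the GC box). The Hopx window is chr5:77115124-77115373 on the minus strand, the Npnt window chr3:132950292-132950541 on the minus strand, the Cav1 window chr6:17306085-17306334 on the plus strand and the Pdpn window chr4:143299565-143299814 on the minus strand.
Hopx: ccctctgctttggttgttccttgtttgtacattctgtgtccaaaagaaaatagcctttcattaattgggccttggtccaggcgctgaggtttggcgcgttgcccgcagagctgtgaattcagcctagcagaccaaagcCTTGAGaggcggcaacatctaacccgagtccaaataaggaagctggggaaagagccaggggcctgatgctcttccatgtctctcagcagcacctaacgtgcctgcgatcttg
Npnt: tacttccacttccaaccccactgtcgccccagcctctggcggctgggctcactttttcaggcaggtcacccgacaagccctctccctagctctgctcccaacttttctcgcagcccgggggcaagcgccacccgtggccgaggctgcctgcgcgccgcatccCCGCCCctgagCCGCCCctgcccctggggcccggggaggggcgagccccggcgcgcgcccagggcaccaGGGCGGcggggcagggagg
Cav1: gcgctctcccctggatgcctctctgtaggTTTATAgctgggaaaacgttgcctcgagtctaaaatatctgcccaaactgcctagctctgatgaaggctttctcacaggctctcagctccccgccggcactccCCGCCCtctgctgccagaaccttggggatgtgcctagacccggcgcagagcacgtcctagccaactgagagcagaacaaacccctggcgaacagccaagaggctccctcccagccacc
Pdpn: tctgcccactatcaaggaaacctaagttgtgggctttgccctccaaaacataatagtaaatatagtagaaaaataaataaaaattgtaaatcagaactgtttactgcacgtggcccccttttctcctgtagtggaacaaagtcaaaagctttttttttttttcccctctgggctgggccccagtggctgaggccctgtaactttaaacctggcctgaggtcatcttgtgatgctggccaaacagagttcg
The windows differed from each other in composition. The Npnt window had 3 GC boxes and 21 CG dinucleotides, the Cav1 window 1 TATA box, 1 GC box and 10 CG dinucleotides, and the Hopx window 1 NKX2-1 core and 8 CG dinucleotides. The Pdpn window had none of the 4 motifs and 2 CG dinucleotides. Over 32851 mouse promoter windows of the same length the median was 6 CG dinucleotides, with quartiles of 2 and 16. The GC box was present in 32.7% of them, CTTGAG in 13.3%, GGAATG in 12.6% and TATAAA in 12.4%. No motif was shared by all 4 windows, and a match is a description of letters, not of a bound site.

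All 7 genes were highest in adult lung, and the other 3 groups did not separate from each other on the brightest probe of any of them. Signal was higher in adult lung than in adult mammary for all 7, by 1.30 (Cav1) to 7.30 (Ager) on the log2 scale for the 6 genes whose probe was above background on all arrays. All 7 were lower in reprogrammed lung than in adult lung, by a similar range of sizes. On every one of the 7 genes the lowest adult lung array lay above the highest of the other 9 arrays, a pattern also shown by 11.8% of features measured on all arrays. For Ager, Akap5, Clic5, Hopx and Npnt the gap between adult lung and the nearest other array was 3.74 to 6.64 on the log2 scale, whereas it was 0.30 for Pdpn and 0.35 for Cav1. Because the cells were measured in bulk, fewer type I cells and less of a transcript per cell cannot be told apart here.

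**Figure D1:**
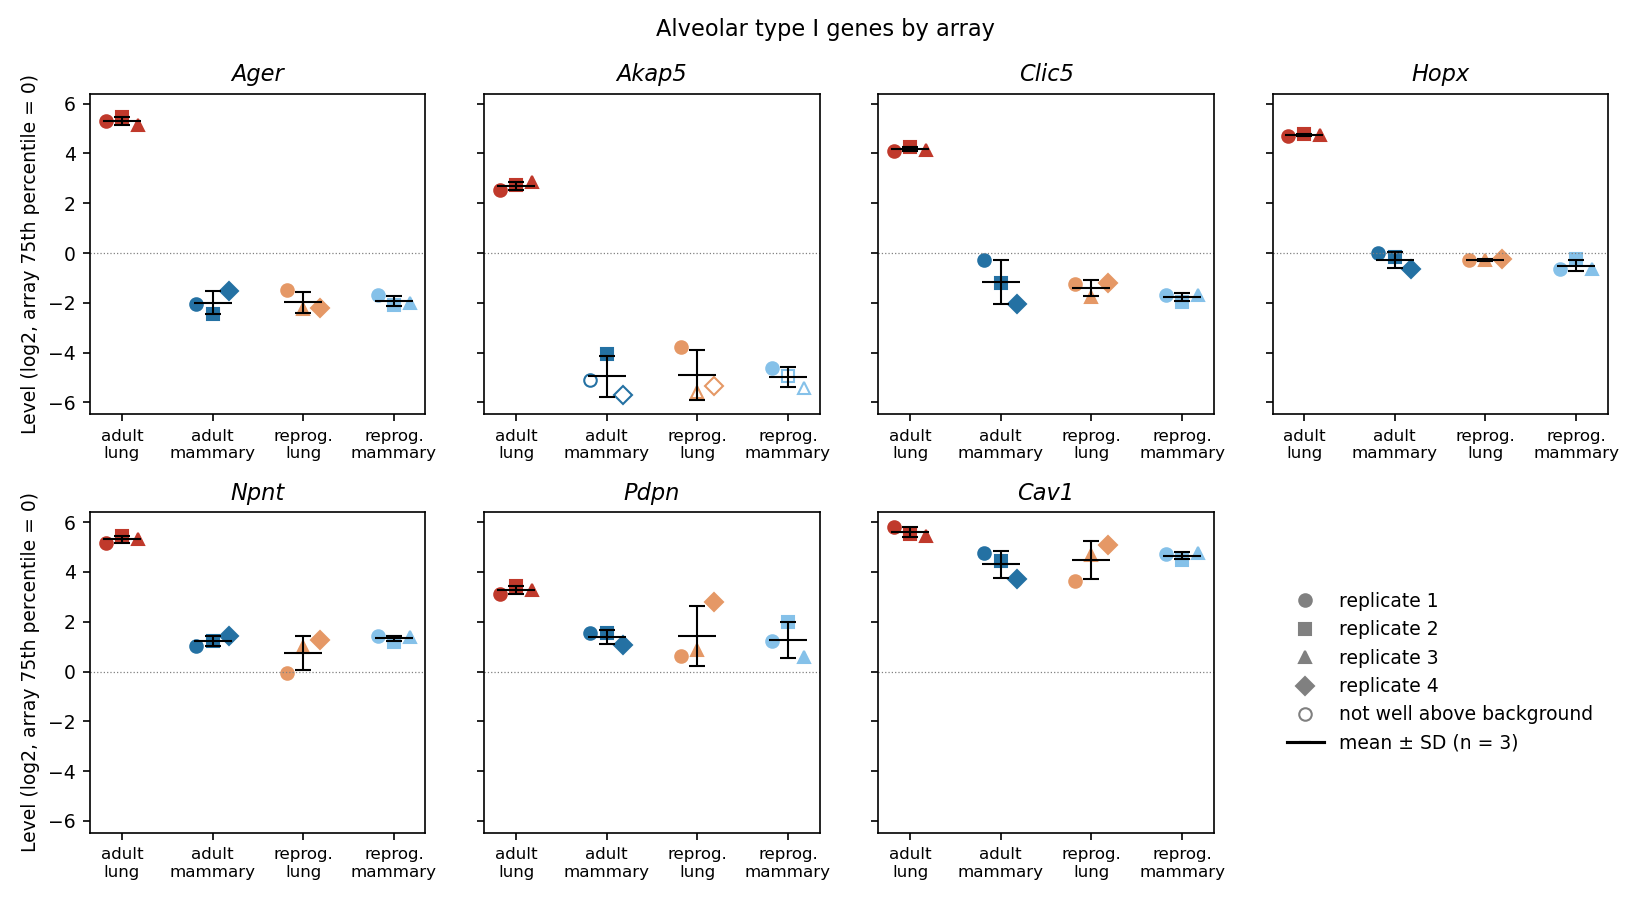
Level of each of the 7 genes on each array (vertical axis, log2 of the processed signal with the array's 75th percentile at 0) by group, with symbols for replicates, open symbols where the probe was not well above background and the group mean ± SD (n = 3). The adult lung arrays lie above all others for every gene, by 6.64 for Ager and by 0.30 for Pdpn.

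Ager encodes the receptor for advanced glycation end products, which also binds HMGB1 and S100 proteins and is unusually abundant in healthy lung. Its levels were 5.29, 5.45 and 5.15 on adult lung replicates 1, 2 and 3. On the other arrays they were -2.04, -2.44 and -1.52 in adult mammary (replicates 1, 2 and 4), -1.48, -2.27 and -2.21 in reprogrammed lung (replicates 1, 3 and 4) and -1.70, -2.08 and -2.00 in reprogrammed mammary (replicates 1, 2 and 3). The 9 arrays outside adult lung overlapped fully and spanned 0.95. Group means were 5.30 ± 0.15 in adult lung, -2.00 ± 0.46 in adult mammary, -1.99 ± 0.44 in reprogrammed lung and -1.93 ± 0.20 in reprogrammed mammary (SD, n = 3 each). Adult lung exceeded adult mammary by 7.30 (SE 0.27, 157-fold, limma adjusted p = 8.67e-07), and reprogrammed lung was below adult lung by a fitted difference of -7.28 (SE 0.27, adjusted p = 8.38e-07). The probe was above background on every array.

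Akap5 encodes a kinase anchoring scaffold that also binds calcineurin. Adult lung levels were 2.53, 2.74 and 2.85. Its probe was not well above background on 6 of the 9 other arrays, and the 3 on which it was, adult mammary replicate 2, reprogrammed lung replicate 1 and reprogrammed mammary replicate 1, had levels of -4.05, -3.77 and -4.63. For folds, dim arrays were counted at the lowest level marked above background on that array. Under the main processing adult lung was then at least 189-fold above adult mammary. It was at least 163-fold above reprogrammed lung and at least 203-fold above reprogrammed mammary. The fitted differences were 7.66, -7.61 and -7.70 (SE 0.51 each, limma adjusted p of 8.85e-06, 1.08e-05 and 7.94e-06), for adult lung minus adult mammary and for each reprogrammed group minus adult lung. These rest on background readings on the dim arrays, and over the alternative settings the first of them ran from 5.12 to 8.12. The lower end lies below 7.56, the log2 value of the 189-fold bound, so the bounds hold for the main processing only. Akap5 entered the test only through adult lung, where it is high, so these p-values are not independent of the filter. No order can be read among the 3 dim groups, and none between the sizes of Akap5 and Ager.

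Clic5 encodes a protein that joins ezrin at the base of actin-rich cell projections. Levels were 4.11, 4.26 and 4.14 in adult lung. In adult mammary they were -0.28, -1.19 and -2.03, in reprogrammed lung -1.25, -1.76 and -1.19, and in reprogrammed mammary -1.67, -1.97 and -1.67. Adult mammary was the most spread group, with replicate 1 highest and replicate 4 lowest of the 9 arrays, and it overlapped both reprogrammed groups. Clic5 was 5.33 higher in adult lung than in adult mammary (SE 0.36, 40.3-fold, limma adjusted p = 9.92e-06). Reprogrammed lung differed from adult lung by -5.57 (SE 0.36, adjusted p = 9.13e-06). A further Clic5 probe gave 5.47 and -5.77 for the same contrasts.

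Hopx acts with SRF and with histone deacetylases. Adult lung arrays had levels of 4.69, 4.77 and 4.74. The adult mammary arrays had -0.01, -0.15 and -0.63, the reprogrammed lung arrays -0.30, -0.29 and -0.25, and the reprogrammed mammary arrays -0.64, -0.25 and -0.63. All 9 of these lay within 0.63 of each other, the narrowest range of the 7 genes, and the 3 groups overlapped. The difference between adult organs was 5.00 (SE 0.19, 31.9-fold, limma adjusted p = 8.67e-07). The difference of reprogrammed lung from adult lung was -5.01 (SE 0.19, adjusted p = 8.38e-07).

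Npnt encodes nephronectin, a basement membrane ligand of integrin alpha8 beta1. Its levels were 5.18, 5.44 and 5.31 in adult lung. They were 1.03, 1.22 and 1.44 in adult mammary, -0.04, 0.98 and 1.26 in reprogrammed lung, and 1.41, 1.20 and 1.37 in reprogrammed mammary. Reprogrammed lung replicate 1, a narrow-range array, was the lowest of the 12. Npnt was 4.08 higher in adult lung than in adult mammary (SE 0.29, 16.9-fold, limma adjusted p = 1.39e-05), and the difference of reprogrammed lung from adult lung was -4.58 (SE 0.29, adjusted p = 8.32e-06). The other 2 Npnt probes gave 3.69 and 3.61 between the adult organs, and -3.62 and -3.26 between reprogrammed and adult lung. On those 2 probes reprogrammed lung replicate 1 was not the lowest array, so its low value rests on the brightest probe.

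Pdpn encodes podoplanin, which is also made by lymphatic endothelium, fibroblasts and myoepithelial cells. Levels on its brighter probe were 3.11, 3.45 and 3.27 in adult lung, 1.55, 1.56 and 1.07 in adult mammary, 0.62, 0.88 and 2.81 in reprogrammed lung, and 1.24, 1.99 and 0.57 in reprogrammed mammary. Reprogrammed lung replicate 4 stood well above replicates 1 and 3 of its group and only 0.30 below the lowest adult lung array. The second probe gave 0.69, 0.78 and 2.55 on the same 3 arrays, so both probes placed replicate 4 high. The same array had a summed signal of 319 over 7 fibroblast genes, against 97.5 and 93.1 on replicates 1 and 3. Reprogrammed lung replicate 1, low for Pdpn, had the highest sum over 5 lymphatic endothelial genes, 40.9 against 2.31 to 25.4 on the other 11 arrays. In that group's means Ccl21a was far the brightest of them, at 2.77 against -2.49 (Lyve1) to -0.63 (Prox1) for the rest. The sum therefore rests largely on a single gene. The part of these cell types in the Pdpn values was not tested.

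Pdpn was higher in adult lung than in adult mammary by 1.88 (SE 0.53, 3.69-fold, limma adjusted p = 0.0223), and its difference of reprogrammed lung from adult lung was -1.84 (SE 0.53, adjusted p = 0.0288). These calls were less secure than those of the first 5 genes. Without reprogrammed lung replicate 4 the latter difference was -2.53 (adjusted p = 0.00116), and without replicate 1 it was -1.43 and no longer passed (adjusted p = 0.0737). Within the 3 slides that held an array of each of these 2 groups it was -2.23 on slide 1, -2.65 on slide 3 and -0.64 on slide 5, the slide of replicate 4. Under the 24 alternative settings with a test, it passed in 16, with adjusted p from 0.00116 to 0.0955. The call between the adult organs was lost with slide as a fixed block (1.47, adjusted p = 0.109), and on slide 1, the only one with arrays of both adult groups, the difference was 1.56.

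Cav1, the main protein of caveolae, is abundant in endothelium, fibroblasts and smooth muscle as well as in type I cells. Levels on its brighter probe were 5.82, 5.54 and 5.44 in adult lung, 4.76, 4.44 and 3.72 in adult mammary, 3.63, 4.69 and 5.09 in reprogrammed lung, and 4.73, 4.48 and 4.75 in reprogrammed mammary. The gene was bright on every array, and reprogrammed lung ranged from the lowest of all arrays, replicate 1, to the highest outside adult lung, replicate 4. Adult lung exceeded adult mammary by 1.30 (SE 0.36, 2.46-fold, limma adjusted p = 0.0226), and reprogrammed lung differed from adult lung by -1.13 (SE 0.36, adjusted p = 0.0472). The second Cav1 probe gave 1.36 (adjusted p = 0.0111) and -0.95, the latter past the threshold no longer (adjusted p = 0.0603). Within slides the reprogrammed lung difference was -1.13, -1.81 and -0.45 on slides 1, 3 and 5. With slide as a fixed block Cav1 lost both calls, at 1.58 (adjusted p = 0.0651) between the adult organs and -1.13 (adjusted p = 0.0656) between reprogrammed and adult lung. The difference of reprogrammed from adult lung passed in 9 of 24 alternative settings, with adjusted p from 0.00944 to 0.154. That between the adult organs passed in 17 of 24, with adjusted p from 0.00196 to 0.0967. The summed signal of blood endothelium, whose 12 genes do not include Cav1, was 196 to 228 in adult lung and 72.1 to 84.6 in reprogrammed lung, and its part in the Cav1 difference was not tested.

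Read against all features, the 7 of 7 genes higher in adult lung than in adult mammary compare with 12.5% of all features called higher, and 28.5% called in either direction, at an adjusted p under 0.05. The 7 of 7 lower in reprogrammed lung than in adult lung compare with 9.31% of all features called lower and 14.1% called higher, 23.4% in all. Against adult lung, reprogrammed mammary was lower on 6 of the 7, where 11.2% of features were called lower and 26.1% were called in either direction. The exception was Cav1, whose difference of -0.95 (95% interval -1.76 to -0.14) had a limma adjusted p of 0.0809. These 3 comparisons share the adult lung arrays, so they do not repeat each other independently. Akap5, counted in each of them, entered the test only through those arrays. Without the 2 narrow-range arrays the counts were 7, 6 and 7 of 7, with Pdpn the gene lost from the middle one. All features called, in either direction, were then 9140, 7952 and 9221, against 6978, 5727 and 6394 in the main setting. With slide as a fixed block the counts of members were 5, 6 and 5 of 7, beside 2702, 4238 and 2437 of all features. Cav1 was lost there from the first 2 comparisons and Pdpn from the first and the last, in the last at -1.95 (adjusted p = 0.0582).

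**Figure D2:**
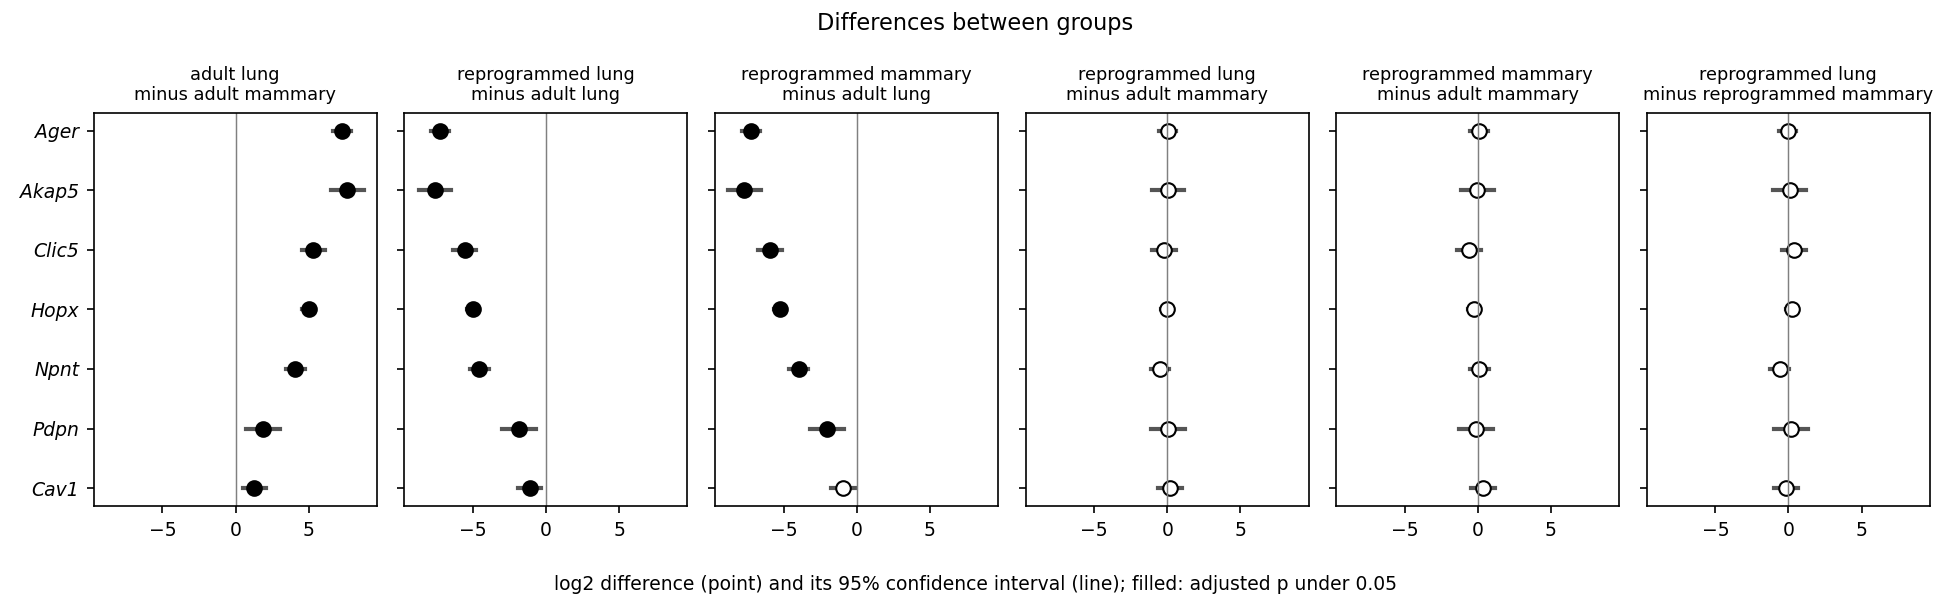
Fitted log2 difference (point) with its 95% confidence interval (line) for each gene in 6 comparisons, filled where the limma adjusted p was under 0.05. In the 3 comparisons with adult lung Ager has 7.30, -7.28 and -7.22, the points of Akap5 rest on a dim probe outside adult lung, and in the other 3 comparisons all points lie between -0.61 and 0.37.

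Among the 3 groups other than adult lung, no member passed the threshold in any of the 3 comparisons. The background there was also close to nil: 0.0286% of features were called between reprogrammed lung and adult mammary, 0.00408% between reprogrammed mammary and adult mammary, and 0.00816% between the reprogrammed groups. At the unadjusted level none of the 7 had a limma p under 0.05 on its main probe either, the smallest being 0.0657 for Npnt between the reprogrammed groups. The share of all features at that level was not computed. The second Clic5 probe had -0.73 (-1.45 to -0.02) for reprogrammed minus adult mammary, with an unadjusted limma p of 0.0455 (adjusted p = 0.465). On that probe the reprogrammed lung arrays lay above the reprogrammed mammary arrays by a gap of 0.12 (difference 0.43, adjusted p = 0.707). For Ager the interval of reprogrammed lung minus adult mammary ran from -0.59 to 0.62 around a difference of 0.01. The Hopx interval in that comparison was -0.43 to 0.40. That of Pdpn was wider, from -1.13 to 1.21, and includes a log2 difference of 1 in either direction. Akap5 was above background on only 1 of 3 arrays in each of these groups, so its interval is not read here. Clic5 in reprogrammed mammary minus adult mammary had the largest difference of the 7, -0.61 (-1.41 to 0.20), and Npnt between the reprogrammed groups -0.60 (-1.24 to 0.05).

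The change from adult to reprogrammed differed between the organ names for 5 of the 7 genes, where 5.39% of all features were called in the lower direction and 7.41% in the higher (12.8% in both). The difference of differences, reprogrammed minus adult for lung less the same for mammary, was -7.36 for Ager, -7.57 for Akap5, -4.96 for Clic5, -4.77 for Hopx and -4.68 for Npnt, with limma adjusted p from 3.01e-05 to 0.000473. Pdpn and Cav1 had -1.72 and -1.48 and missed the threshold (adjusted p of 0.167 and 0.0910). Each of these values holds the adult lung level of the gene, so it carries the same arrays as the comparisons above. Akap5 entered the test only through those arrays.

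**Figure D3:**
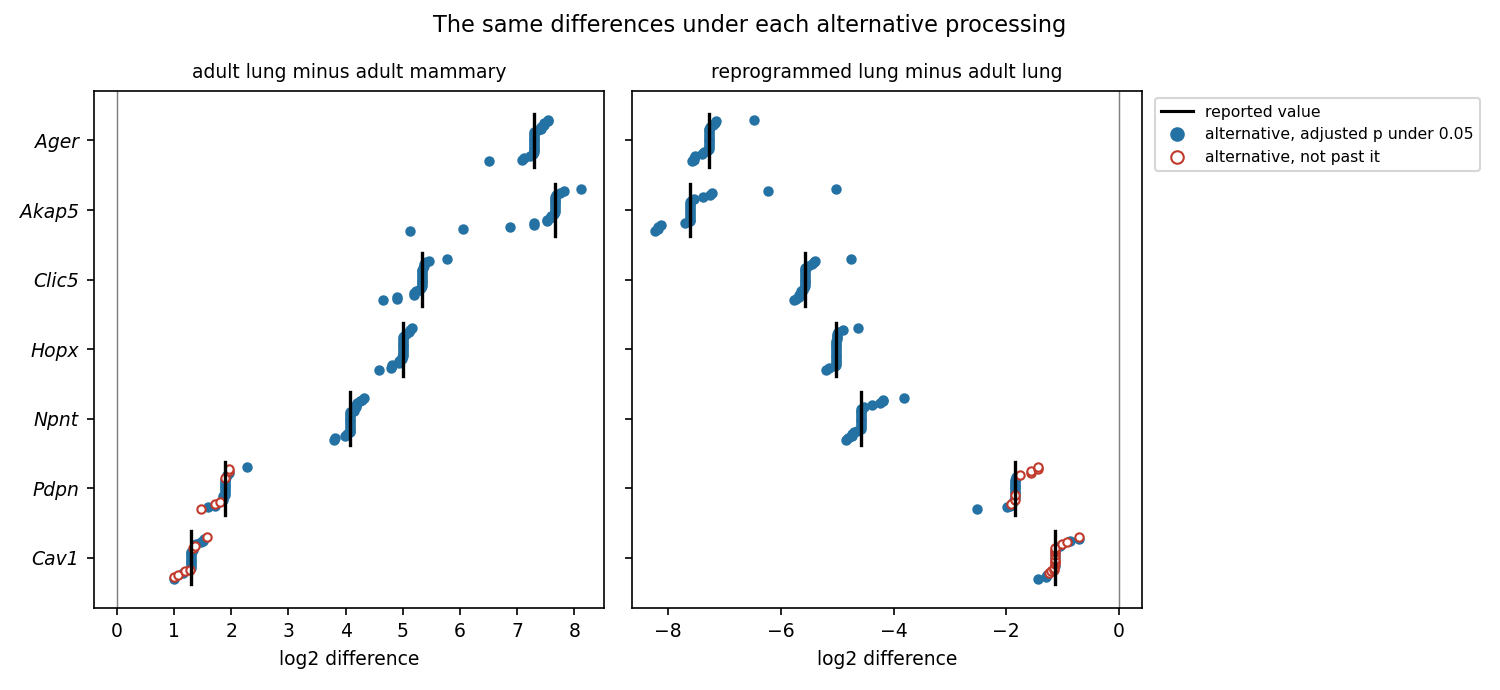
Log2 difference of each gene (horizontal axis) under the reported setting (black bar) and each alternative with a test (points), filled blue where the adjusted p was under 0.05 and open red where not. Ager, Akap5, Clic5, Hopx and Npnt pass throughout, whereas Pdpn passes in 18 and 16 of 24 alternatives and Cav1 in 17 and 9.

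Outside adult lung the 7 genes did not vary as one block. Over the 9 remaining arrays Pearson's r between pairs of members ran from -0.68 (Spearman's rho -0.33) to 0.71, a description over arrays that share slides and groups. By the rule of the 2 genes most alike over all 12 arrays, Ager was nearest to Klhl5 and Sftpb (r = 0.995 each), Akap5 to Nckap5 and Pitpnc1 (0.991 and 0.990), Clic5 to Sstr4 and Hopx (0.994 and 0.991), and Hopx to Tbx4 and Clic5 (0.992 and 0.991). Npnt was nearest to Emp2 and Cyp2f2 (0.990 each), Cav1 to Ltbp1 and Dtna (0.972 and 0.965), and Pdpn to Vegfd and Ptpn13 (0.954 and 0.949). Over the 9 arrays without adult lung all of these values were lower, at 0.39 for Hopx with Tbx4, 0.61 for Ager with Sftpb and 0.71 to 0.96 for the other pairs, the highest being Cav1 with Ltbp1.

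Other genes of the type I cell, from a list of 20 of which 19 were tested, followed the members in part. In adult lung minus adult mammary 12 of 19 were higher and none lower, with a median difference of 2.06 against 0.0021 over all features. In reprogrammed lung minus adult lung 12 were lower and none higher, with a median of -2.57 against 0.10. Over all features 12.5% were called higher in the first of these comparisons and 9.31% lower in the second. In limma's test no gene of the list passed between reprogrammed lung and adult mammary, between reprogrammed and adult mammary, or between the reprogrammed groups. At an unadjusted p under 0.05 there were 2 of 19 in each of the first 2, Col4a3 and Timp3 in the one and Aqp5 and S100a6 in the other, and 6 of 19 between the reprogrammed groups, namely Aqp5, Emp2, Col4a3, Lmo7, S100a6 and Krt7. The share of all features at that unadjusted level was not computed, so these counts are not read as differences between groups. Without the narrow-range arrays the adjusted counts were 13 higher in adult lung minus adult mammary, and 12 lower with 1 higher in reprogrammed minus adult lung. All features called in either direction rose there from 6978 to 9140 and from 5727 to 7952.

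Cldn18, a tight junction claudin of the alveolar epithelium, had levels of 3.76, 3.91 and 3.84 in adult lung and was not well above background on 6 of the 9 other arrays, all 3 of reprogrammed mammary among them. It was at least 204-fold higher in adult lung than in adult mammary and at least 124-fold higher than in reprogrammed lung (limma adjusted p of 0.000936 and 0.00274). Cldn18, counted in the calls of its list, entered the test only through adult lung, where it is high, so these p-values are not independent of the filter. The 2 narrow-range arrays had the highest Cldn18 levels outside adult lung, namely -1.45 on adult mammary replicate 4 and -0.54 on replicate 1 of reprogrammed lung. Col4a3, a basement membrane collagen chain, was 5.77 higher in adult lung than in adult mammary and had -4.71 for reprogrammed minus adult lung. Its 3 reprogrammed lung arrays, at -2.80, -2.94 and -3.01, were all above the 3 adult mammary arrays at -3.67, -3.94 and -4.33, a difference of 1.06 that missed the threshold (adjusted p = 0.215). Emp2, a tetraspan membrane protein, and Sec14l3, a lipid transfer protein, were 3.57 and 4.98 higher in adult lung than in adult mammary.

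Not every textbook type I gene separated the organs. Aqp5, the water channel of type I cells, was named after its values were seen, and had levels of 2.00, 2.20 and 2.29 in adult lung and 2.83, 0.94 and 1.56 in adult mammary. Its reprogrammed lung levels were 0.00, 2.08 and 1.91, and those in reprogrammed mammary 3.38, 2.54 and 3.64. Adult lung lay inside the range of adult mammary, with a difference of 0.39 (95% interval -0.92 to 1.70, limma adjusted p = 0.667), and reprogrammed mammary had the highest mean, 3.19.

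**Figure D4:**
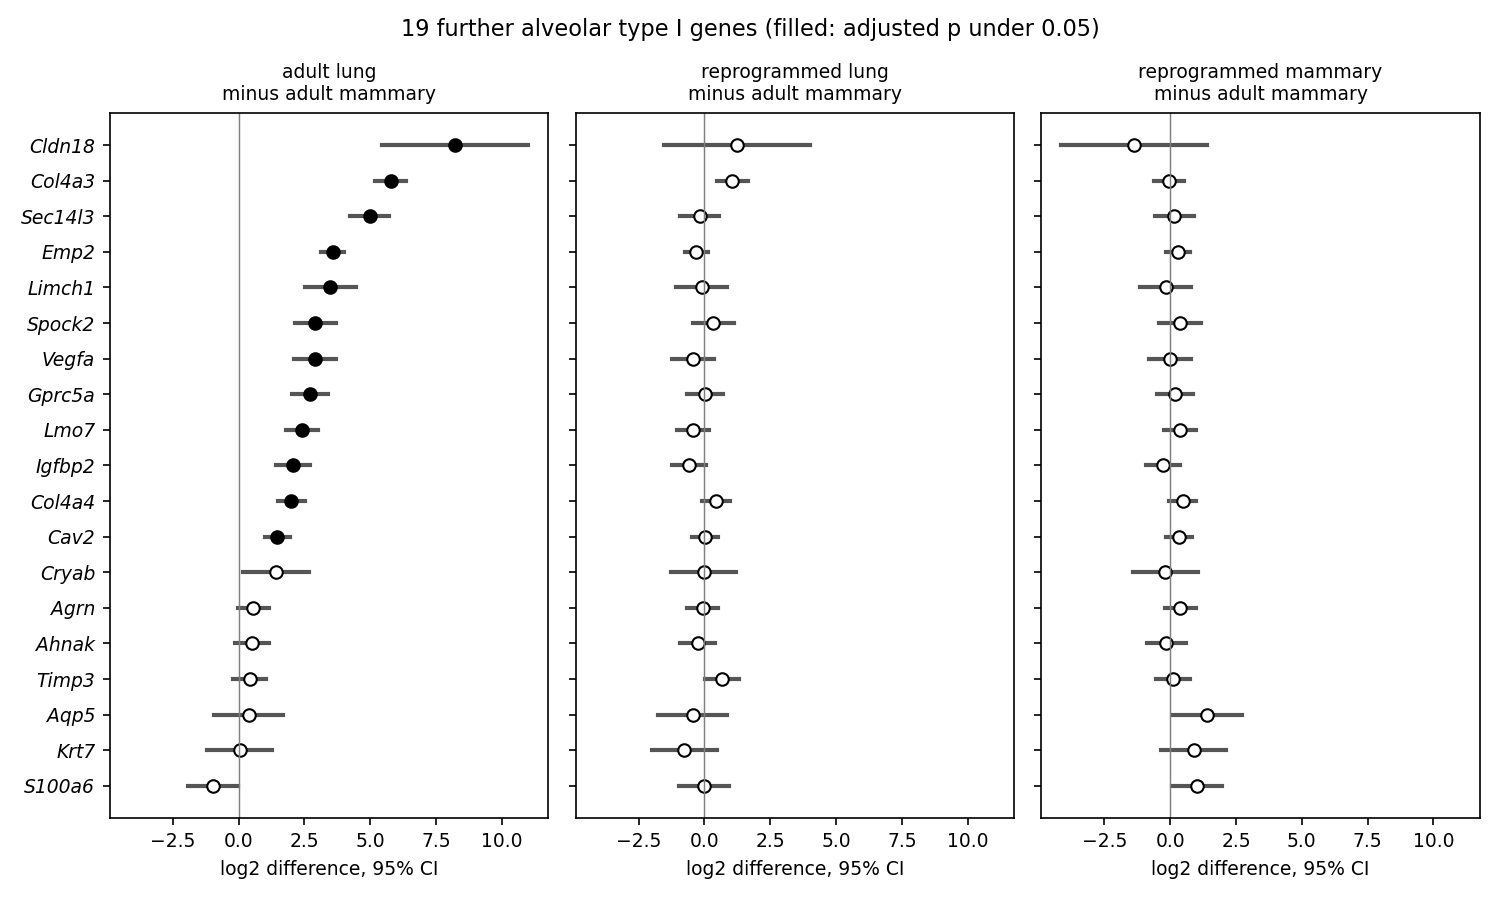
Fitted log2 difference with 95% confidence interval for 19 further type I genes in 3 comparisons that share the adult mammary arrays, filled where the limma adjusted p was under 0.05. In adult lung 12 genes are higher, up to Cldn18 at 8.23, whose lower side is dim, while none passes for either reprogrammed group.

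Caveolae need cavins and accessory proteins beside Cav1. Of 8 such genes, 3 were higher and 1 lower in adult lung than in adult mammary, beside 28.5% of all features called in either direction. Cavin2 (1.96), Cav2 (1.48) and Ehd2 (0.92) were higher, with limma adjusted p of 0.000654, 0.000852 and 0.0401. Cavin3 was lower, with a difference of -1.05 (adjusted p = 0.0161). Each moved the other way between reprogrammed and adult lung, with -1.54, -1.46 and -0.96 for the first 3 and 1.36 for Cavin3, whose reprogrammed lung arrays at 2.23, 2.24 and 3.18 were all above its adult lung arrays at 1.19, 1.22 and 1.16.

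Of 15 ligands and binding partners of the members, 4 were higher and 2 lower in adult lung than in adult mammary, beside 28.5% of all features called in either direction. Itga8, the integrin chain that binds nephronectin, was 2.38 higher, and its difference between reprogrammed and adult lung was -2.22 (limma adjusted p of 0.00109 and 0.00192). Clec1b, the platelet receptor for podoplanin, had 2.45 and -2.45 in the same comparisons. S100a9, a ligand of the Ager receptor made by neutrophils, was at least 31.6-fold higher in adult lung than in adult mammary (adjusted p = 0.0124) but did not pass between reprogrammed and adult lung (-1.04, adjusted p = 0.641). Prkar2b, a regulatory subunit of the kinase that Akap5 anchors, was lower in adult lung, by a fitted -1.53 (adjusted p = 0.0173).

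Close relatives of the members did not all share their pattern. Of 8 tested, 3 were higher and 1 lower in adult lung than in adult mammary, beside 28.5% of all features called in either direction. Clic3, a paralog of Clic5, was 3.86 higher in adult lung (limma adjusted p = 1.83e-06), with adult lung levels of 2.44 to 2.98 against -1.24 to -0.64 on the other 9 arrays. Egfl6, in the same family of matrix proteins as Npnt, was 3.89 higher and Clic4 1.06 higher (adjusted p of 4.63e-05 and 0.0184). Akap1 was lower, with -1.07 (adjusted p = 0.00795).

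Genes on the list of type I regulators, not all of them transcription factors, split. Nkx2-1, needed for lung epithelial identity, had levels of 1.66, 1.85 and 1.83 in adult lung and was not well above background on any of the 9 other arrays, which makes adult lung at least 124-fold higher than adult mammary and at least 109-fold higher than reprogrammed lung (limma adjusted p of 6.12e-06 and 9.11e-06). Foxa2 was at least 19.3-fold and Tead4 4.37-fold higher in adult lung than in adult mammary. Nkx2-1 and Foxa2 entered the test only through adult lung, where they are high, so their calls are not independent of the filter. Foxa1 went the other way, at -2.36 between the adult organs (adjusted p = 0.00101) and 1.80 between reprogrammed and adult lung. Of the 13 genes on this list, 5 were higher and 2 lower in adult lung than in adult mammary, and 6 were lower and 1 higher in reprogrammed than in adult lung. Over all features 28.5% and 23.4% were called in either direction in these comparisons.

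Markers of type II cells and of blood endothelium moved with the members, those of general epithelium and of basal and myoepithelial cells the other way, and those of fibroblasts and lymphatic endothelium were mixed. Over all features 12.5% were called higher and 15.9% lower in adult lung than in adult mammary. In reprogrammed against adult lung 9.31% were called lower and 14.1% higher. For the type II cell, all 9 tested genes were higher in adult lung than in adult mammary, with a median of 5.53, and all 9 lower in reprogrammed than in adult lung. Sftpa1, counted here, entered the test only through adult lung. Sftpc, a surfactant protein of that cell type, differed by 10.54 and -9.34 (limma adjusted p of 4.79e-06 and 9.76e-06), with adult lung replicate 2 left out of its fit because its spot was an outlier. The summed signal of the other 8 type II genes was 106 to 144 in adult lung and 4.74 to 10.3 over the other groups. For blood endothelium 10 of 12 genes were higher in adult lung than in adult mammary and 9 of 12 lower in reprogrammed than in adult lung, led by Ramp2 at 3.42 and Cldn5 at 3.39 between the adult organs. Fibroblast genes, with 8 tested, had 2 higher and 2 lower between the adult organs (median -1.19), and lymphatic endothelial genes, with 5 tested, also 2 higher and 2 lower (median 0.16). Of 4 macrophage genes tested 1 was higher. The part of these cell types in the values of genes that they share with type I cells, such as Cav1, was not tested.

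**Figure D5:**
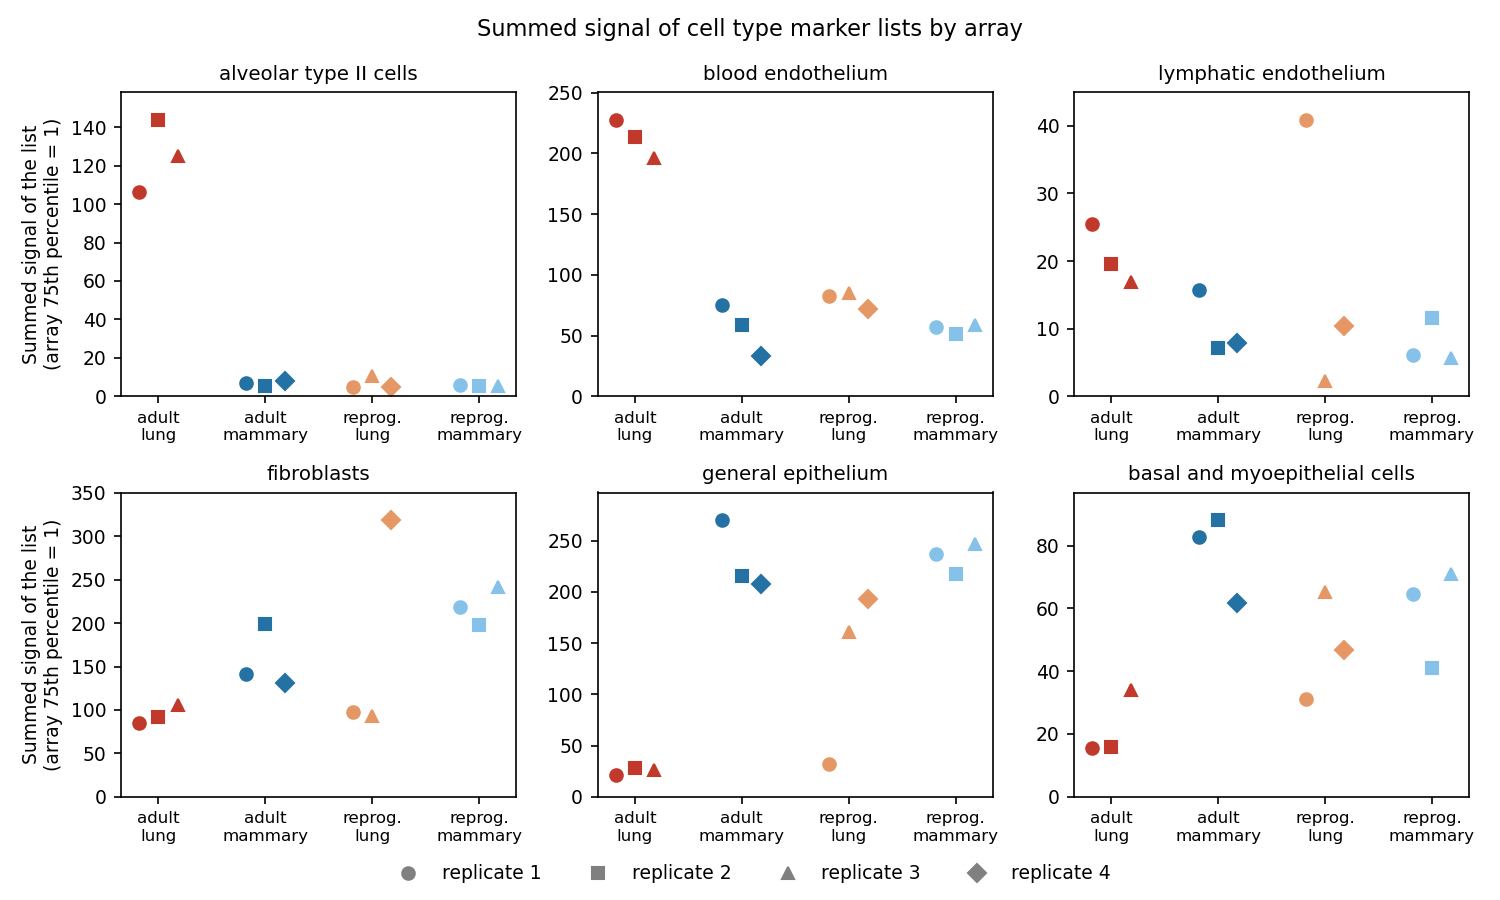
Summed signal of 6 marker lists on each array, over genes with a value on all 12 arrays (vertical axis, 1 is the array's 75th percentile, each panel from 0) by group, with symbols for replicates. Adult lung is highest for type II cells and blood endothelium and lowest for general epithelium, and single reprogrammed lung arrays stand apart for lymphatic endothelium (40.9), fibroblasts (319) and general epithelium (32.3).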

How the data were processed

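Messenger RNA was measured on 12 single-colour arrays, 3 per group. The members and the gene lists were chosen with earlier results of these data known, so no list here is independent evidence. Genes named from a list are the up to 4 with the largest called difference between the adult organs, and each member's 2 nearest genes by Pearson correlation over 12 arrays. Among the genes named outside that rule are Aqp5, Ccl21a and the type I genes listed for an unadjusted p under 0.05.

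Per the file headers, the processed signal in the deposited scanner files is an intensity on a linear scale, background-subtracted within each array by Agilent Feature Extraction 10.5.1.1 and not scaled between arrays (the submitters' processing notes name version 10.1). The authors' value table holds log2 values that follow the rank order of the raw median signal, and it served as an alternative. How it was normalized was not stated in those sources.

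Spots of a probe were averaged without outlier spots, and each array's values were scaled to its 75th percentile before log2. Probes were named by accession through a RefSeq gene table, which gave a symbol to 24844 of 41174 probes. The brightest probe stood for a gene. Features above background on all 3 arrays of at least 1 group entered a limma 3.58.1 fit, run in R 4.3.3 (group means over 12 arrays, moderated variances, Benjamini-Hochberg at 0.05 over all 24504 features of a comparison). Akap5, Cldn18, Nkx2-1, Foxa2 and the type II gene Sftpa1 were among those that entered only through adult lung, where they are high. Their calls are therefore not independent of this filter. Folds against a dim group are bounds for the main processing only, written "at least". The 75th percentile signal was 294 to 609 against negative-control medians of 18 to 23, no spot was saturated, and 3 arrays per group limit the precision. On simulated data for adult lung minus adult mammary (24196 features), 67, 67 and 66 features were changed by a log2 of 1, 2 and 4. Of these 22.4%, 62.7% and 92.4% were recovered, with 7.09% false among the calls. The real comparison called 28.5% of features. Both rates depend on the share of features changed, so they do not carry over to the reported calls. The normexp alternative used the median signal and the median local background of each spot, and the mean spot signal was not used here.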

Additional observations from a re-analysis of the deposited data

Results flagged for a closer look

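For 5 of the 7 genes the change from adult to reprogrammed cells differed between the organ names by limma's interaction term. Over all features 12.8% were called on that term, with 5.39% in the lower direction. Each value holds the adult lung level of the gene, and Akap5 entered the test only through adult lung, where it is high. The term was -7.36 for Ager and -7.57 for Akap5, -4.96 for Clic5, -4.77 for Hopx and -4.68 for Npnt on the log2 scale. Standard errors were 0.39, 0.72, 0.51, 0.27 and 0.41 in the same order, and adjusted p ran from 3.01e-05 to 0.000473. Every lung array pair on a shared slide moved down for these 5 genes, whereas the mammary pairs moved by -1.40 to 0.49.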

How the results depend on the processing

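Ager, Akap5, Clic5, Hopx and Npnt kept their direction and their call in every comparison with adult lung under all alternatives that tested them, and Akap5 was not tested where probes had to be above background on all arrays. Pdpn and Cav1 kept their direction there and lost calls, both of them between the adult organs with slide as a fixed block (1.47, adjusted p = 0.109, and 1.58, adjusted p = 0.0651). No member passed among the 3 other groups under any alternative with a test. Members called ranged from 5 to 7 in the comparisons with adult lung when 1 array was left out, and the cause of lost calls was not tested. All features called then ran from 4730 to 9407 for the adult organs and from 3930 to 7254 for reprogrammed minus adult lung. For reprogrammed mammary minus adult lung they ran from 4509 to 8654.

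With the replicate number as a block, Cav1 lost its calls (1.29, adjusted p = 0.0967, between the adult organs, and -1.15, adjusted p = 0.154, between reprogrammed and adult lung), and no other member's call changed. After group means were subtracted, same-numbered arrays of different groups had correlations of -0.53 to 0.33, over 0.1 in 5 of 13 pairs. Pairs with other numbers had -0.43 to 0.64, over 0.1 in 13 of 41, so the numbers were not taken to pair samples. Counts over all features moved more. From 5727 for reprogrammed minus adult lung they fell to 2828 with normexp, 3122 with only the 2 groups compared and 3728 with the replicate block. From 6978 for the adult organs they fell to 2702 with slide as a fixed block. From 6394 for reprogrammed mammary minus adult lung they became 2437 with slide fixed, 12494 with array weights and 10765 with only the 2 groups. From 3137 for the organ difference they became 1138 with normexp, 1167 with slide fixed, 1137 with the replicate block, 5874 with array weights and 5713 without the narrow-range arrays, and 1792 to 5252 with 1 array left out.

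Reprogrammed lung minus adult mammary, at 7, became 0 with normexp, slide fixed, replicate block or only the 2 groups, 2 with array weights, 3 with the authors' values or no filter, 4 with probes above background on all arrays and 24 without the narrow-range arrays. With 1 array left out it ran from 2 to 328, the latter without reprogrammed lung replicate 4. Reprogrammed lung minus reprogrammed mammary, at 2, became 0 with normexp, quantile, the authors' values, probes above background on all arrays, slide fixed, replicate block or only the 2 groups, 24 with array weights and 11 without the narrow-range arrays, and 0 to 162 with 1 array left out. Reprogrammed minus adult mammary, at 1, became 0 with normexp, quantile, slide fixed, replicate block or only the 2 groups, 6 with the authors' values or probes above background on all arrays, 2 with the mean of probes, 394 with array weights, 82 without the narrow-range arrays and 1 to 19 with 1 array left out.

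Normexp moved the median of all features between the adult organs from 0.0021 to 0.34 and the share of higher calls from 44.0% to 60.9%. For reprogrammed minus adult lung that share was 60.2%, and 39.7% with normexp and 47.5% with the authors' values. For reprogrammed mammary minus adult lung it was 57.0% and 42.9% with normexp, and for the organ difference 57.9%, then 34.3%, 47.2% and 44.0% with normexp, quantile and the authors' values. The counts over the other type I genes were recomputed under the same alternatives after the data were seen. The organ difference uses all 4 groups, so only the 2 groups compared was not run for it.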
